A study of Drosophila melanogaster with 12 samples.

Results

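Whole male and female flies of Drosophila melanogaster were compared at 10 days of age, with 3 male and 3 female libraries. These 6 libraries were chosen by the sex and age in their labels and are 6 of the 12 libraries of the series, the others being from 30-day-old flies. Both sexes were mated w1118 flies, reared at 25 °C, separated by sex at 3 days and then kept on a medium of 10% sucrose and 10% yeast, with no treatment. Each sample was a homogenate of 10 flies, and each group was sampled in 3 independent experiments, from which poly(A) RNA was sequenced as paired reads of 150 bp. The question was which gene families and functions differ between the sexes. In whole flies, fewer cells of a type and less RNA per cell cannot be told apart.

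Ovaries fill much of the abdomen of a fed and mated female, and in them nurse cells make the RNA and protein that an egg is loaded with and follicle cells lay down the eggshell. Males carry testes, in which spermatocytes transcribe a large set of genes found in few other cells and store many of those RNAs until the sperm elongate. The accessory glands of males secrete the proteins of the seminal fluid. Somatic sex follows a splicing cascade from Sxl to dsx and fru, and in males the MSL complex with its roX RNAs raises transcription of the single X chromosome.

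Summed over genes, male libraries had 41341025, 38199967 and 48613036 counts, and female libraries had 62924598, 53070842 and 51208712. Levels are given as CPM, counts relative to library size with TMM factors. Of 15130 genes 13334 had enough counts for edgeR's quasi-likelihood test, with a threshold of 0.05 on adjusted p. Standard errors (SE) are those of the log2 fold change. In males 6212 genes (46.6%) were higher and 4219 (31.6%) were lower, and the median log2 fold change over all tested genes was 1.06. The sexes did not overlap in CPM for 84.2% of the tested genes. Genes named for the size of their change were taken only from those without overlap. For these genes non-overlap was a rule of choice and not a result. The direction of a moderate change depended on the scale. RLE factors shifted the median of all genes by 0.21, upper quartile factors by 0.21 and plain totals by -0.16, and of all calls 63.1%, 63.0% and 57.1% were then higher in males, against 59.6% with TMM. Factors set from 45 genes of neurons, photoreceptors and muscle, called somatic factors from here, shifted it by -2.55, and then 3074 genes (23.1%) were higher, 6861 (51.5%) were lower and 992 calls changed sign. Under all 5 sets of factors 3074 genes (23.1%) were higher and 3861 (29.0%) were lower. The marker genes of the ovarian follicle summed to 10.3 to 49.5 CPM in males and 3134 to 4334 CPM in females, with the male maximum in male replicate 3. Ovary germline markers summed to 261 to 296 CPM in males and 1278 to 1327 CPM in females. Among them BicC, not tested for too few counts, had 1.17, 1.97 and 0 CPM in males and no counts in females. Its exons share 1128 bases with CG45084 on the same strand. For genes without a count in a sex, loss of reads in counting was not tested. Testis markers summed to 4750 to 4945 CPM in males and at most 4.47 CPM in females, this value being that of female replicate 2, and accessory gland markers to 6173 to 8006 CPM in males and 0.265 to 0.656 CPM in females. Without male replicate 3 the number of genes lower in males changed by at most 3 in each of 11 lists of egg, germline, cell cycle and nuclear genes. Without female replicate 2 the number higher was different in 2 of 11 testis lists, being 21 in place of 16 for the tetraspanins and 19 in place of 16 for the neprilysins. Of the muscle markers, Act88F (4.45, 4.21 and 11.2 CPM in males and 0.162, 0 and 3.42 in females), TpnC4 (at most 2.24 CPM) and fln (at most 1.51 CPM), all of flight muscle, were close to 0 in both sexes, while Mhc, the muscle myosin, had 1122, 1279 and 1279.7 CPM in males and 367, 394 and 396 in females.

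**Figure D1:**
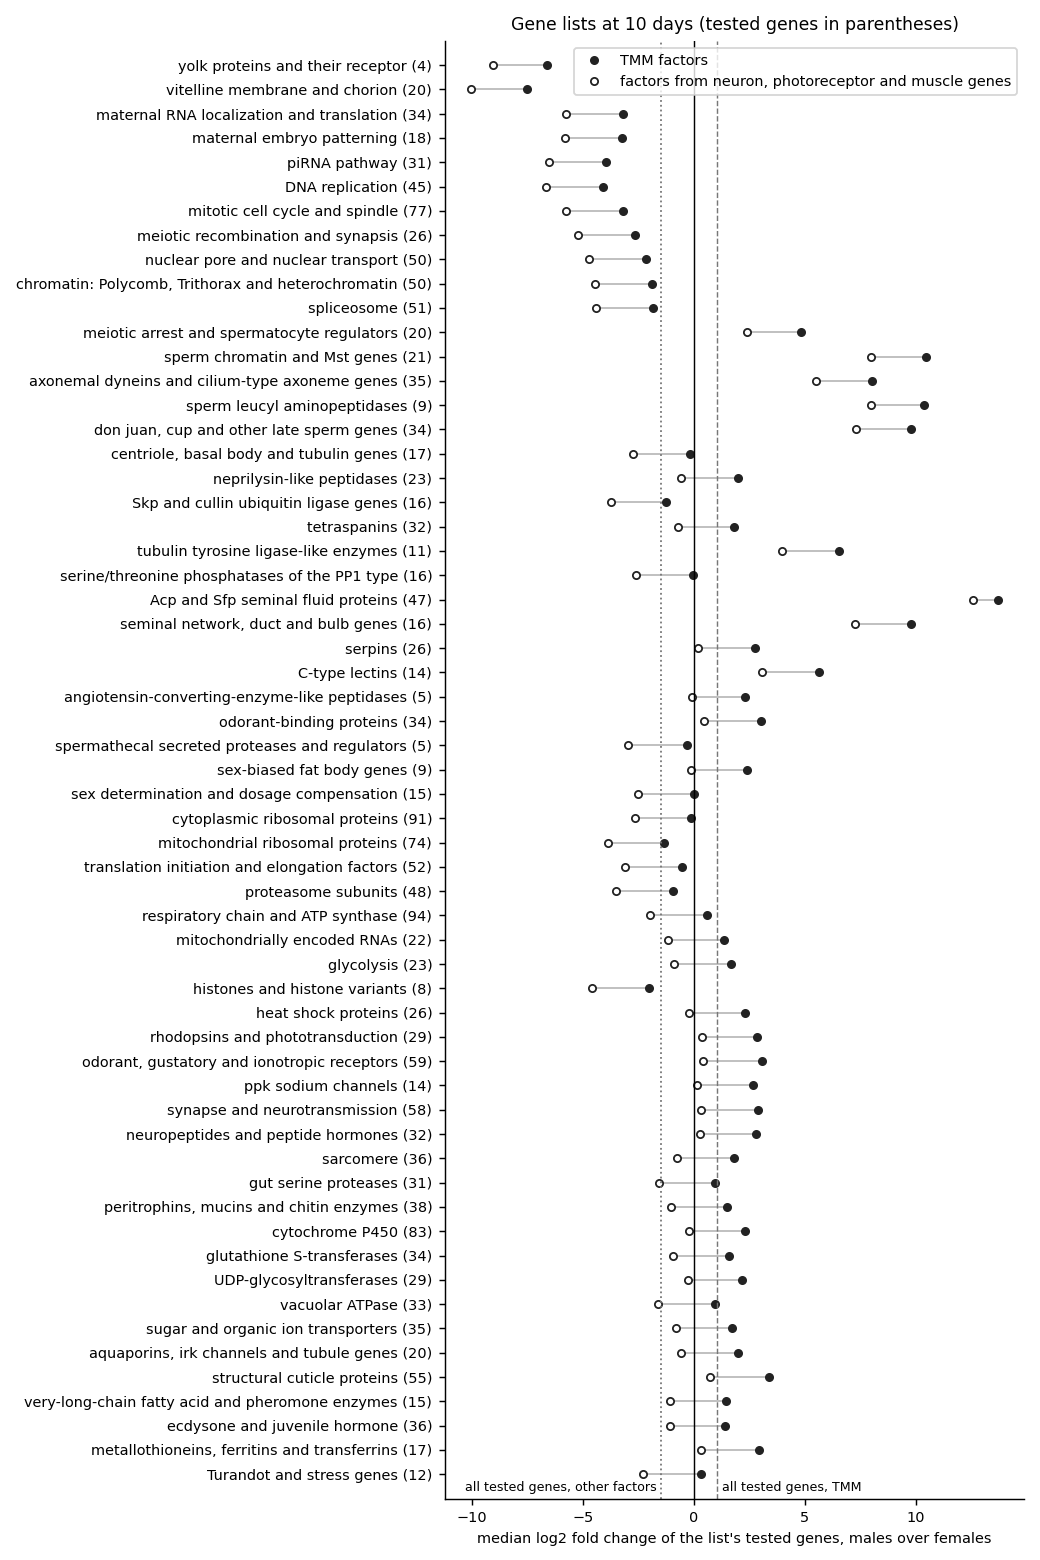
Median log2 fold change (males over females) of the tested genes of each of 59 gene lists, with TMM factors (filled) and somatic factors (open). The dashed and dotted lines are the medians of all tested genes under the same factors, 1.06 and -1.49. Seminal fluid, sperm chromatin and late sperm lists lie far to the right and eggshell and yolk lists far to the left under both, while 21 lists change sign between the factors.

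Eggshell and yolk genes were lower in males throughout. All 20 tested genes of the vitelline membrane and chorion, the layers that follicle cells deposit around the egg, were lower in males with a median log2 fold change of -7.51, and so were the 3 yolk proteins and their receptor (median -6.63). Under somatic factors the medians were -10.04 and -9.08. Cp36, a major protein of the chorion, had no counts in males and 833, 623 and 845 CPM in females (at least 31181-fold lower, adjusted p = 3.40e-06). Its partner Cp38 had no counts in males and 825, 560.3 and 875 CPM in females (at least 30678-fold lower, adjusted p = 5.71e-06). The 3 libraries of each sex lay far from those of the other for both. Other genes among the 10 with the largest fall were the eggshell gene psd (at least 1302-fold lower, adjusted p = 1.19e-05) and yellow-g2 (at least 2816-fold lower, adjusted p = 6.02e-06), a yellow family gene used in the eggshell. The other 6 of these 10 were CG13114, CG18586, CG3457, CG11381, CG43090 and CG43074, none with a count in males and with 28.9 to 87.3 CPM in single female libraries. The vitellogenin receptor yl, which takes yolk into the oocyte, had 0.598, 2.05 and 13.9 CPM in males and 1301, 1230.4 and 1101 in females (log2 fold change -7.77, SE 1.24, adjusted p = 0.00131). Yp1, a yolk protein made in fat body and follicle cells, had 0, 1.39 and 10.8 CPM in males and 605, 743 and 612 in females (log2 fold change -7.31, SE 1.49, adjusted p = 0.00393), and 875 bases of its exons are also covered by an antisense RNA. Male replicate 3 was the highest male library for yl and Yp1 but stayed far below every female library. Without male replicate 3, 19 eggshell genes and all 4 yolk genes were called lower.

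Genes that load the egg with RNA and pattern the embryo were lower as well, with 31 of 34 genes of maternal RNA localization and translation (median -3.21) and 14 of 18 of embryo patterning (median -3.25). dhd, a thioredoxin of the egg, had 0.728, 1.81 and 24.1 CPM in males and 4438, 5999 and 4884 in females (log2 fold change -9.16, SE 1.58, adjusted p = 0.00185). osk, which assembles the germ plasm, had 0, 0 and 0.993 CPM in males and 175, 189 and 148 in females (log2 fold change -8.91, SE 1.06, adjusted p = 0.000338). Its exons overlap those of the noncoding transcript lncRNA:osk over 1131 bases. Every female library lay far above every male library for both genes, and male replicate 3 was the highest of the males. The anterior determinant bcd had 0.910, 0.342 and 1.2 CPM in males and 146, 159.6 and 145 in females (log2 fold change -7.51, SE 0.41, adjusted p = 7.00e-06), and swa, which localizes its RNA, had 0.312, 0.132 and 3.11 CPM in males and 394, 384 and 399 in females (log2 fold change -8.32, SE 1.05, adjusted p = 0.000432). The translational repressor me31B, named after its values were seen, had 102, 96.2 and 88.6 CPM in males and 3599, 3829 and 3249 in females (log2 fold change -5.22, SE 0.14, adjusted p = 1.68e-06). Among the genes that start the Toll pathway in the embryo, the protease gd had no counts in males and 11.3, 11.8 and 10.8 CPM in females (at least 455-fold lower, adjusted p = 5.85e-05). The exceptions were exu, an RNA localization gene that is also used in the testis (log2 fold change 0.52, SE 0.13, adjusted p = 0.0062, and -2.03 with the somatic factors), tsl of the terminal system (log2 fold change 1.06, SE 0.28, adjusted p = 0.00964, and -1.51 with the somatic factors) and wbl (windbeutel), needed in the follicle for dorsoventral patterning, with 69.3, 31.2 and 72.2 CPM in males and 3.87, 2.95 and 2.07 in females (log2 fold change 4.28, SE 0.42, adjusted p = 7.36e-05). Only wbl stayed higher in males with somatic factors.

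In the piRNA pathway, which silences transposons in the germline, 28 of 31 genes were lower in males (median -3.97). The Rhino protein gene rhi, which marks the clusters that piRNAs come from, had 0.364, 1.79 and 0.474 CPM in males and 62.5, 67.1 and 49.9 in females (log2 fold change -6.10, SE 0.66, adjusted p = 0.000173), and its transcription partner moon had 0, 0.289 and 0 CPM in males and 22.1, 22.9 and 18.2 in females (log2 fold change -7.78, SE 1.20, adjusted p = 0.001). aub, the Piwi protein of the germ plasm, had 4.6, 5.16 and 6.11 CPM in males and 111, 116 and 93.2 in females (log2 fold change -4.34, SE 0.19, adjusted p = 3.22e-06). These 3 genes are among the 84.2% of tested genes for which the sexes did not overlap. papi was the one gene called higher (log2 fold change 0.61, SE 0.13, adjusted p = 0.0042, and -1.95 with the somatic factors). With male replicate 1 or female replicate 2 left out, 2 genes of the pathway were called higher.

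Cell cycle and replication genes were lower in males almost as a class. Of the 45 genes of DNA replication 44 were lower (median -4.10), and of the 77 genes of the mitotic cycle and spindle 72 (median -3.20). RnrL, a subunit of ribonucleotide reductase, had 3.56, 3.95 and 4.47 CPM in males and 528, 528 and 444 in females (log2 fold change -6.97, SE 0.16, adjusted p = 1.68e-06). The origin recognition gene Orc1 had 2.68, 1.53 and 0 CPM in males and 236, 196 and 227 in females (log2 fold change -7.32, SE 1.02, adjusted p = 0.000686). stg, the Cdc25 phosphatase that triggers mitosis, had 2.31, 3.29 and 2.98 CPM in males and 459, 459 and 437 in females (log2 fold change -7.30, SE 0.17, adjusted p = 1.68e-06). In each case all 3 male libraries were within a few CPM of 0. cort, the activator of the anaphase-promoting complex in the egg, had 0, 0.184 and 1.26 CPM in males and 91.7, 103 and 83.6 in females (log2 fold change -7.53, SE 1.03, adjusted p = 0.00065). CycB, a mitotic cyclin named after its values were seen, had 79.4, 100 and 110.4 CPM in males and 3495, 3721 and 3439 in females (log2 fold change -5.20, SE 0.17, adjusted p = 1.95e-06). The pericentriolar gene cnn was the exception (log2 fold change 0.51, SE 0.09, adjusted p = 0.00136, and -2.05 with the somatic factors). Of the 8 histone genes tested, 6 were lower (median -2.03), among them the embryonic linker histone BigH1 (log2 fold change -4.90, SE 0.15, adjusted p = 1.85e-06) and the centromeric histone cid (log2 fold change -6.12, SE 1.04, adjusted p = 0.00175). Replication-dependent histone RNAs carry no poly(A) tail and are mostly lost from libraries of this kind.

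**Figure D2:**
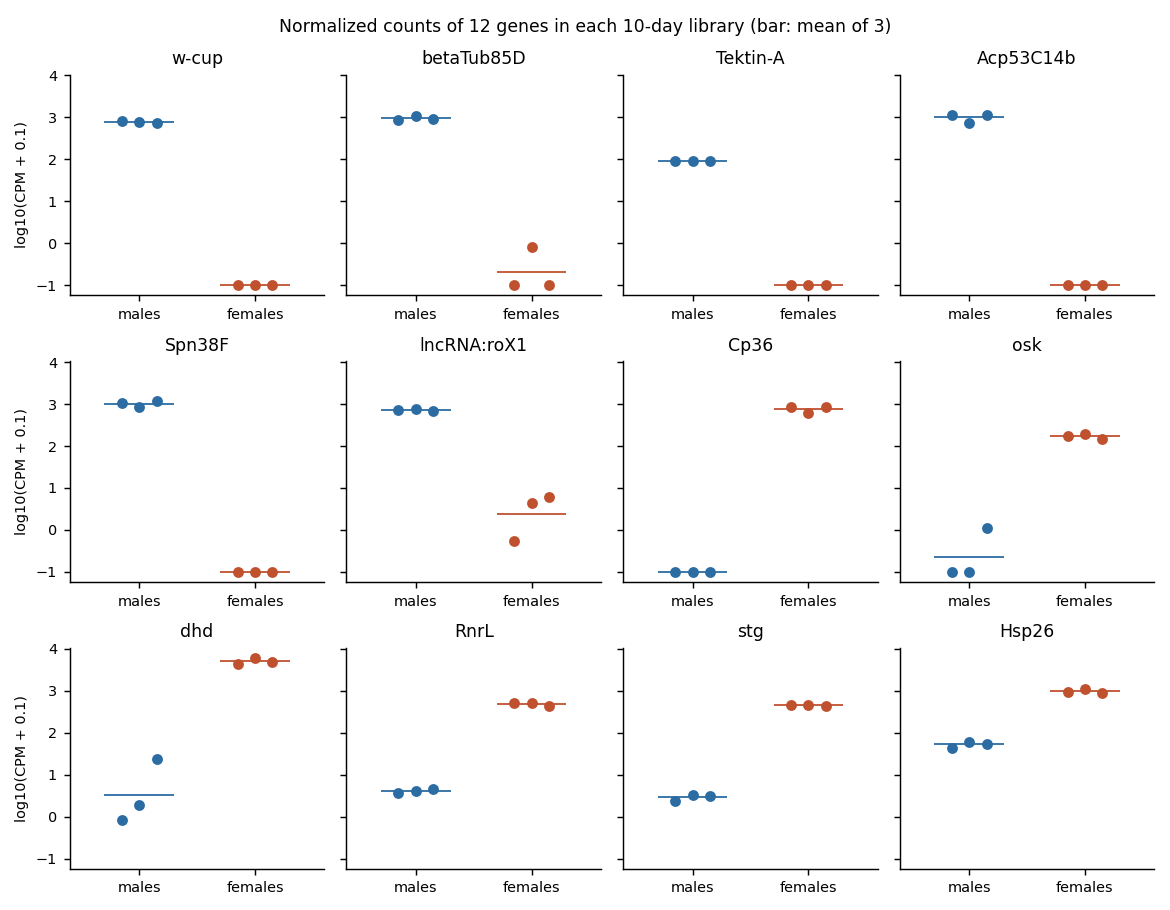
CPM of 12 genes in each of the 6 libraries, as log10(CPM + 0.1), with a bar at the mean of the 3 plotted values of a sex. The 6 genes from w-cup to lncRNA:roX1 are higher in every male library, the 6 from Cp36 to Hsp26 in every female library, and dhd and osk show male replicate 3 above the other males.

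Meiotic genes were split. Of 26 genes of recombination and synapsis 16 were lower and 4 were higher (median -2.65), and 2 stayed higher with somatic factors. Meiosis of Drosophila males has no recombination and no synaptonemal complex. mtrm, which holds Polo inactive in the oocyte, had 3.12, 1.74 and 4.38 CPM in males and 750.4, 817 and 653 in females (log2 fold change -7.90, SE 0.39, adjusted p = 6.69e-06), and the recombination gene spn-D had no counts in males and 4.12, 7.87 and 8.74 CPM in females (at least 270.1-fold lower, adjusted p = 0.000277). In the other direction ord, which acts in sister chromatid cohesion in both sexes, had 12.8, 20.8 and 19.7 CPM in males and 0, 0.341 and 0 in females (log2 fold change 7.32, SE 1.46, adjusted p = 0.00362). cona, a synaptonemal complex protein in females, had 10.1, 16.5 and 16.3 CPM in males and 0, 0.511 and 0.160 in females (log2 fold change 6.01, SE 1.23, adjusted p = 0.00369). Both ord and cona are among the 84.2% of tested genes without overlap, a condition for naming them.

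Genes of other machinery of growing cells were mostly lower in males as well, against 31.6% of all genes. Of 50 nuclear pore and transport genes 44 were lower (median -2.16). Chromatin genes of the Polycomb, Trithorax and heterochromatin groups were lower in 45 of 50 (median -1.89), spliceosome genes in 47 of 51 (median -1.86). Mitochondrial ribosomal proteins were lower in 62 of 74 (median -1.34). The importin recycling factor Cse1 had 21.2, 25.6 and 20.2 CPM in males and 427, 395 and 394 in females (log2 fold change -4.18, SE 0.13, adjusted p = 1.95e-06). esc, a core subunit of Polycomb repressive complex PRC2, had 2.89, 3.34 and 5.75 CPM in males and 87.8, 88.6 and 92.7 in females (log2 fold change -4.49, SE 0.30, adjusted p = 1.16e-05). The splicing gene hoip had 16.6, 13.4 and 16 CPM in males and 349.8, 365 and 281 in females (log2 fold change -4.44, SE 0.16, adjusted p = 2.55e-06). Cse1, esc and hoip are among the 84.2% of tested genes without overlap, a condition for naming them. HP1e, a heterochromatin protein 1 paralog of the testis, was the one chromatin gene higher in males under all factors, with 5.33, 5.39 and 3.79 CPM in males and no counts in females (at least 283-fold higher, adjusted p = 0.000317).

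Many testis genes lay far on the male side, though the seminal fluid genes described below had a higher median, 13.72. Of 21 genes of sperm chromatin and the Mst family 19 were higher in males, of 35 axonemal genes 33, and of 34 don juan, cup and other late sperm genes 33, against 46.6% of all genes. The medians were 10.47, 8.03 and 9.79. Genes without a count in females make fitted values depend on the prior count, and with those set to their lower bounds the medians were 10.47, 7.85 and 9.35. With somatic factors 19, 27 and 29 genes stayed higher, and without female replicate 2 the counts were 19, 33 and 33. Mst98Cb, a protein of the sperm tail, had 265, 219.8 and 272 CPM in males and 0, 0.132 and 0 in females (log2 fold change 12.54, SE 0.63, adjusted p = 9.30e-06). Prtl99C, a protamine-like protein of sperm chromatin, had 97.6, 87.4 and 82 CPM in males and no counts in females (at least 5237-fold higher, adjusted p = 4.34e-06). Tektin-A, a filament protein of the axoneme, had 89.2, 90.5 and 91.7 CPM in males and no counts in females (at least 5347-fold higher, adjusted p = 3.75e-06). Female counts of such genes lay mostly in female replicate 2. The axonemal dynein heavy chain Dnah3 had 58.6, 96 and 67.6 CPM in males and no counts in females (at least 4353-fold higher, adjusted p = 1.17e-05), and w-cup, one of the genes transcribed after meiosis whose RNA collects at the tip of the spermatid bundle, had 823, 752 and 740.2 CPM in males and no counts in females (at least 45514-fold higher, adjusted p = 1.95e-06). The exception in the Mst group was Mst85C, with 8.69, 8.79 and 11.7 CPM in males and 55.1, 63.3 and 47.2 in females (log2 fold change -2.50, SE 0.22, adjusted p = 3.71e-05).

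Spermatocyte regulators include the testis-specific TFIID and tMAC subunits without which spermatocytes arrest before the meiotic divisions. Of 20 tested 15 were higher in males and 2 lower (median 4.83), and 10 stayed higher with somatic factors. sa, a TAF8 homologue, had 8.97, 16.8 and 16.2 CPM in males and no counts in females (at least 832-fold higher, adjusted p = 7.56e-05), and wuc, a paralog of lin-52, had 3.04, 7.26 and 2.71 CPM in males and no counts in females (at least 251-fold higher, adjusted p = 0.000729). The genes that were lower were bam, the differentiation factor of both germlines, with 0, 0.605 and 2.05 CPM in males and 35.7, 50.7 and 24.2 in females (log2 fold change -5.36, SE 1.21, adjusted p = 0.0064), and twe, the meiotic Cdc25, with 37.7, 49.2 and 40.6 CPM in males and 210.2, 252 and 202 in females (log2 fold change -2.38, SE 0.15, adjusted p = 9.36e-06). Both are used in the ovary as well. Sperm leucyl aminopeptidases, abundant proteins of mature sperm, were higher in 8 of 9 (median 10.37). S-Lap3 had 679, 889 and 696 CPM in males and 0, 0.625 and 0 in females (log2 fold change 11.92, SE 1.17, adjusted p = 0.000137), and loopin-1 had 1025, 1108 and 928 CPM in males and 0, 0.492 and 0.337 in females (log2 fold change 11.91, SE 0.87, adjusted p = 3.85e-05). Tubulin tyrosine ligase-like enzymes, which add amino acids to tubulin, were higher in 7 of 11 and lower in 2. TTLL6A had 61.1, 92.7 and 65.3 CPM in males and no counts in females (at least 4289.6-fold higher, adjusted p = 9.77e-06), whereas TTLL5 had 55.2, 64.8 and 53.4 CPM in males and 200.2, 196 and 165 in females (log2 fold change -1.69, SE 0.13, adjusted p = 2.10e-05).

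Several large enzyme and transporter families each held a few members that were found almost solely in males among others that were lower. Of 32 tetraspanins, a family of proteins that cross the membrane several times, 16 were higher and 7 lower, or 3 and 14 with somatic factors, against 46.6% higher and 31.6% lower of all tested genes with TMM factors. Tsp33B had 33.9, 52.8 and 47.7 CPM in males and no counts in females (at least 2655-fold higher, adjusted p = 1.41e-05) while Tsp66E had 16, 23.1 and 20.1 CPM in males and 186, 225 and 173 in females (log2 fold change -3.30, SE 0.18, adjusted p = 6.18e-06). Among serine/threonine phosphatases of PP1 and related types 7 of 16 were higher and 7 lower, so that in both families the share higher was near that of all genes. PpD5 was at 33.1, 43.9 and 35.7 CPM in males and no counts in females (at least 2214-fold higher, adjusted p = 1.15e-05) and Pp4-19C, of the PP4 type, was at 23.1, 19.99 and 24.4 CPM in males and 168, 193 and 156 in females (log2 fold change -2.94, SE 0.14, adjusted p = 4.06e-06). The members named at both ends are among the 84.2% of tested genes without overlap, a condition for naming them. The sugar transporter family gene sut4 had 180.1, 179 and 166 CPM in males and no counts in females (at least 10321-fold higher, adjusted p = 2.61e-06), and its relative sut1 had 22.5, 19 and 22 CPM in males and 193, 209.5 and 206 in females (log2 fold change -3.26, SE 0.12, adjusted p = 2.55e-06). The copper transporter Ctr1C (at least 1096-fold higher, adjusted p = 2.98e-05) and the zinc transporter ZnT33D (at least 1386-fold higher, adjusted p = 6.62e-05) likewise had no count in females. Of the neprilysins, metallopeptidases that cut small peptides, 16 of 23 were higher with a median of 2.00, but 2 with a median of -0.58 under somatic factors, these being Nep5 (log2 fold change 6.20, SE 0.44, adjusted p = 1.50e-05) and Nep4 (log2 fold change 4.91, SE 0.33, adjusted p = 1.22e-05).

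All 47 tested genes named as accessory gland or seminal fluid proteins were higher in males, under every set of factors, with a median of 13.72. In females 38 of them had no count, and with those at their lower bounds the median was 11.33. Acp53C14b had 1132, 739 and 1157 CPM in males and no counts in females (at least 60131-fold higher, adjusted p = 5.71e-06). The neighbouring Acp53C14a had 917, 713 and 975 CPM in males and no counts in females (at least 51629.8-fold higher, adjusted p = 3.11e-06), and Mst57Da had 1028, 763 and 1421 CPM in males and no counts in females (at least 64318-fold higher, adjusted p = 1.75e-05). Male replicate 2 was the lowest male library for all 3 genes. The females were mated, and counts of these genes in them were rare. Acp32CD, for example, had 1409, 1055 and 1459.9 CPM in males and 0.265, 0.435 and 0 in females (log2 fold change 12.45, SE 0.82, adjusted p = 2.50e-05). The largest changes of all were those of CG17097 (at least 363153-fold higher, adjusted p = 2.59e-06), CG9029 (at least 137732-fold higher, adjusted p = 3.40e-06) and CG31872 (at least 128057-fold higher, adjusted p = 1.95e-06), each without a count in females. BG642312 (at least 68676-fold higher, adjusted p = 5.33e-06) and BG642163 (at least 56397-fold higher, adjusted p = 2.95e-06) were also among the 10 largest.

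Genes of the sex peptide network and of the ejaculatory duct and bulb were mostly higher as well, and so were serpins and C-type lectins, counted as whole families. Of all tested genes 46.6% were higher, and 23.1% with somatic factors. Whether the serpins and lectins belong to the ejaculate was not tested. Of 16 genes of the sex peptide network, ejaculatory duct and bulb 15 were higher (median 9.80) and 13 with somatic factors. aqrs, needed for sex peptide to be kept in the female, had 337, 218 and 317 CPM in males and no counts in females (at least 17243-fold higher, adjusted p = 6.50e-06), and Ebp, a protein of the mating plug, had 159.9, 214 and 343 CPM in males and no counts in females (at least 14424-fold higher, adjusted p = 8.06e-05). Ebp was uneven among males, with male replicate 3 highest and male replicate 1 lowest. Of 26 serpins, inhibitors of serine proteases, 21 were higher and 1 lower with a median of 2.77. With somatic factors 11 were higher and 7 lower (median 0.19). Spn38F had 1035, 852 and 1193 CPM in males and no counts in females (at least 61152-fold higher, adjusted p = 3.11e-06), and Spn77Bb had 541, 277 and 223 CPM in males and no counts in females (at least 20172-fold higher, adjusted p = 0.000128), with male replicate 1 the highest. Spn88Ea, in contrast, had 55.1, 37.7 and 34 CPM in males and 113, 132 and 105 in females (log2 fold change -1.46, SE 0.21, adjusted p = 0.000432). Of 14 C-type lectins, sugar-binding proteins, 10 were higher (median 5.63) and 7 with somatic factors, led by lectin-30A with 371, 266 and 343 CPM in males and no counts in females (at least 19362-fold higher, adjusted p = 3.69e-06).

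Odorant-binding proteins, small carriers that are secreted by sensory organs and also by glands, were higher in 26 and lower in 2 of 34 genes (median 3.03), and with somatic factors 12 were higher and 5 lower (median 0.47). Of all tested genes 46.6% were higher and 31.6% lower, and 23.1% and 51.5% with somatic factors. Obp51a had 223, 148 and 107 CPM in males and no counts in females (at least 9278-fold higher, adjusted p = 5.80e-05), and Obp56f had 141, 103 and 166 CPM in males and no counts in females (at least 8156-fold higher, adjusted p = 7.66e-06). These were without a count in females, unlike most of the family. Obp19c ran the other way, with 0, 0.289 and 1.6 CPM in males and 39.5, 35.9 and 33.6 in females (log2 fold change -5.82, SE 1.20, adjusted p = 0.00414). Of 5 genes listed for the spermatheca, a sperm store of the female tract, 2 (40%) were lower in males and 1 (20%) was higher. With so few genes, and 31.6% of all tested genes lower, these counts say nothing about the organ. Send1, a protease of the spermathecal secretory cells, had no counts in males and 10.6, 10.8 and 6.1 CPM in females (at least 371-fold lower, adjusted p = 0.000142). Hr39, a nuclear receptor needed to form the spermathecal glands, had 25.7, 33.5 and 24.9 CPM in males and 61.9, 57.3 and 74.6 in females (log2 fold change -1.21, SE 0.19, adjusted p = 0.000702). The gene that was higher, fest, had 379.8, 541 and 444 CPM in males and 0, 2.33 and 0.496 in females (log2 fold change 8.96, SE 1.23, adjusted p = 0.000646). These values go against its place in a list for a female organ. The list summed to 408 to 576 CPM in males, most of it from fest, and 71.5 to 83.7 CPM in females, so that the sum does not describe the spermatheca. Send2 did not differ by the test (adjusted p = 0.793), with at most 1.65 CPM in any library.

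Many genes of the testis are further copies of genes that all cells use. In 96 listed pairs with both copies tested, set up as a paralog against its general copy, 89 paralogs were higher in males and 7 lower, with a median log2 fold change of 9.02, and 80 stayed higher with somatic factors. The 74 general copies had a median of -0.55, with 15 higher and 40 lower. In 55 pairs the paralog was higher and the general copy lower. The pairs were listed with knowledge of where the paralogs are expressed, so that these counts are a description. The share of a pair that the paralog takes, on counts per kilobase of exon, needs no scaling between libraries. In 88 of 96 pairs this share was higher in every male library than in every female library. All 15 proteasome paralogs had a mean share of 11.1% to 64.7% in males and at most 0.894% in females. Rpn12R, a regulatory subunit paralog, took 61.6, 68.4 and 64.1% in males and 0, 0.174 and 0% in females of its pair with Rpn12, and Prosbeta5R1, a paralog of a catalytic subunit, took 52.9, 57.3 and 53.5% in males and 0% in every female library. Among the general proteasome genes Rpn12 itself had 40.9, 29.6 and 36.5 CPM in males and 169.7, 207 and 168 in females (log2 fold change -2.35, SE 0.16, adjusted p = 1.33e-05). Of the whole list of 48 subunits, which includes paralogs, 15 were higher and 30 lower, against 46.6% and 31.6% of all tested genes.

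Paralogs of mitochondrial genes showed the same pattern. Paralogs of the import channel and its receptor took most of their pairs in males, with tomboy40 at 76, 79.1 and 78.5% in males and 0, 0.194 and 0% in females of the pair with Tom40 and tomboy20 at 58.6, 59.7 and 55.1% in males and 0% in every female library of that with Tom20. The chaperonin paralog Hsp60C took 68.1, 70.04 and 68.6% in males and 0, 0.114 and 0.0907% in females of its pair with Hsp60A. For these 3 pairs no female library reached 1%. All 20 paralogs of the respiratory chain and ATP synthase were higher in males, the share ranging from ATPsynbetaL with 2.52, 4.43 and 4.18% in males and 0.0279, 0 and 0% in females to UQCR-11L with 57.7, 58.3 and 68.3% in males and 0, 4.04 and 0% in females, where female replicate 2 held all female counts. COX4L, of cytochrome c oxidase, took 54.6, 55.8 and 56.3% in males and 0.277, 0.609 and 0.167% in females. Over the whole list of 94 nuclear genes of the respiratory chain 56 were higher and 8 lower (median 0.60), which turned to 25 higher and 67 lower (median -1.96) with somatic factors. Of all tested genes 46.6% were higher and 31.6% lower (median 1.06), and 23.1% and 51.5% with somatic factors (median -1.49). The median of the list was thus below that of all genes under both, although the list also holds paralogs such as ND-24L.

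In energy metabolism, the glycolytic paralog Pglym87 took 61.1, 57.7 and 63.6% in males and 0% in every female library of its pair with Pglym78, and Hex-t2, a testis hexokinase, 67.5, 65.1 and 59.3% in males and 0, 0.383 and 0% in females of its pair with Hex-A. Gapdh2 went against the rule, with 47.8, 51.9 and 45.5% in males and 74.1, 73.7 and 73.7% in females of its pair with Gapdh1. In the fumarase group of the citric acid cycle Fum3 had 167, 179 and 167 CPM in males and 0, 0.530 and 0 in females (log2 fold change 10.02, SE 1.03, adjusted p = 0.000168), while Fum1 had 191, 172 and 189 CPM in males and 278, 346 and 279.9 in females (log2 fold change -0.71, SE 0.12, adjusted p = 0.00111). Cap-binding proteins of translation showed it too: eIF4E4 took 54.1, 61.3 and 56.4% in males and 0% in every female library of its pair with eIF4E1, and eIF4E1 had 238, 224 and 235 CPM in males and 776, 889 and 742 in females (log2 fold change -1.79, SE 0.11, adjusted p = 9.61e-06). Tubulins went both ways, betaTub85D of the sperm taking 66.9, 72.5 and 66.3% in males and 0, 0.0373 and 0% in females of its pair with betaTub56D, and alphaTub67C of the egg taking 0.0633, 0.0986 and 0.402% in males and 28.3, 25.2 and 27.3% in females of its pair with alphaTub84B. The other exceptions included ovary genes. RpS5b, a ribosomal protein of the female germline, took 3.24, 3.87 and 4.97% in males and 63.3, 62.1 and 62.5% in females of its pair with RpS5a, and dhd took 0.436, 1.18 and 11.5% in males and 93.5, 94.3 and 94.8% in females of its pair with Trx2. The paralogs nxf2, RpL24-like and RpS15Ab were lower in males too.

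**Figure D3:**
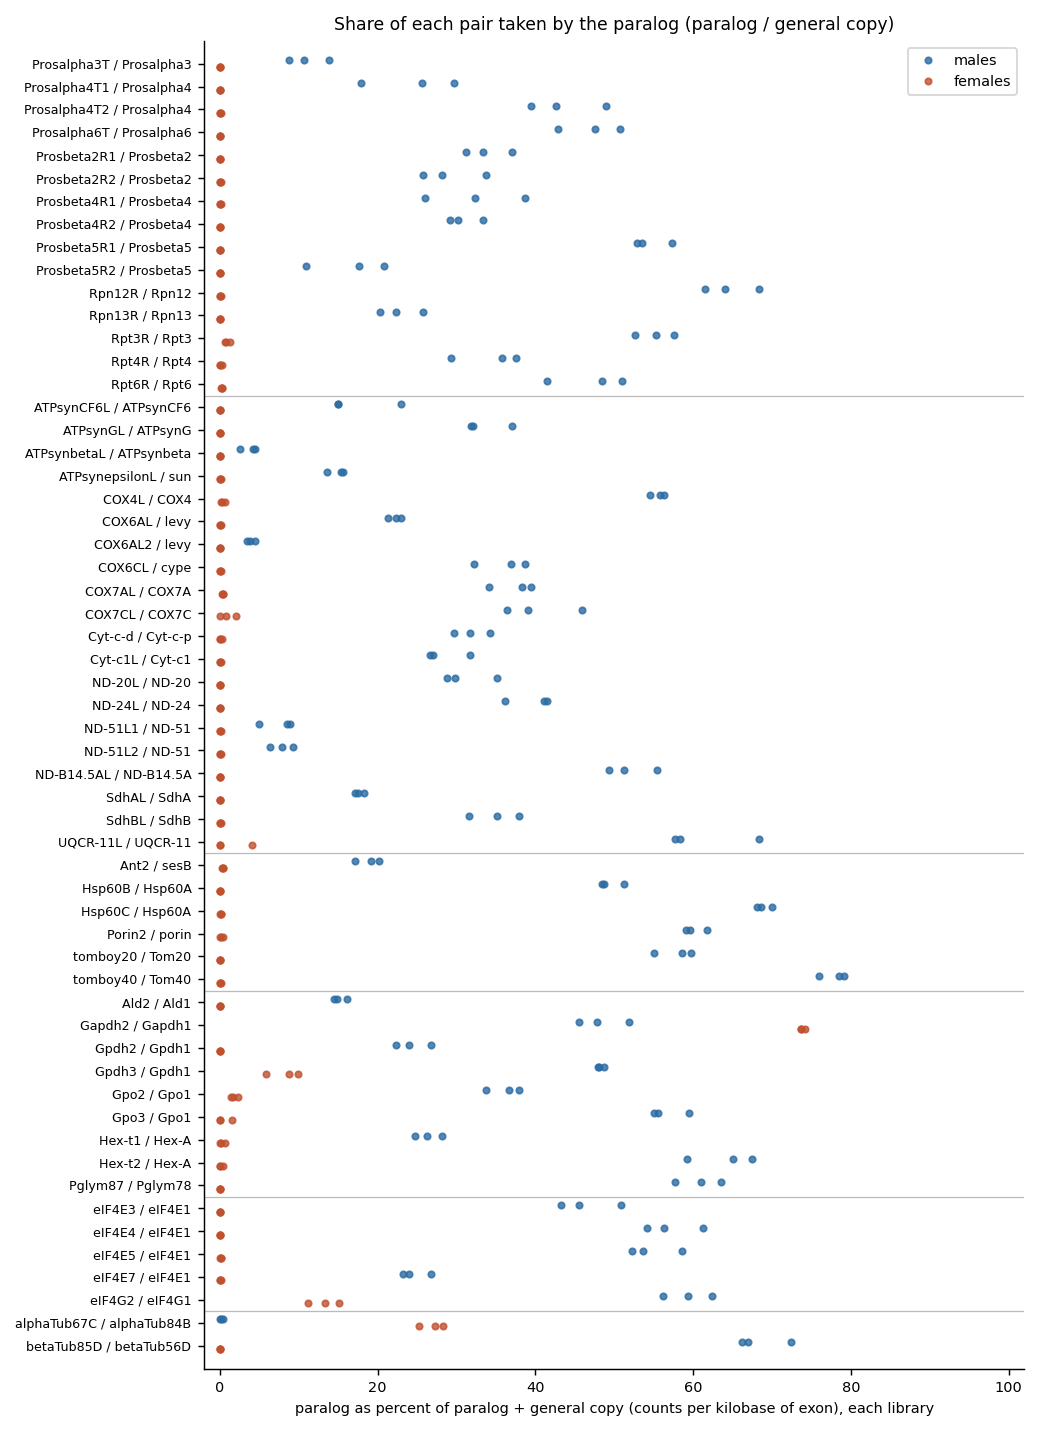
Share that the paralog takes of the pairs of 6 families, as percent of counts per kilobase of exon of both copies, in the 3 male and 3 female libraries. From top to bottom the blocks are the proteasome, the respiratory chain, mitochondrial import, glycolysis, translation factors and tubulins. Most female points lie at 0 and the male points to their right, with Gapdh2 and alphaTub67C the other way round.

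Cytoplasmic ribosomal proteins sat close together between the sexes on this scale, with 8 higher, 9 lower and 74 not called of 91 (median -0.15). The number lower was 20 without male replicate 3 and 16 without female replicate 3, and with somatic factors it was 84. RpL10Aa had 63.6, 63.5 and 53.8 CPM in males and no counts in females (at least 3543-fold higher, adjusted p = 5.96e-06), unlike nearly all others. RNAs of the mitochondrial genome took 22.2%, 18.8% and 22.1% of all counts in males and 7.35%, 7.52% and 10.9% in females. The large ribosomal RNA alone took 19.5%, 16.1% and 19.9% in males and 6.18%, 6.25% and 9.87% in females, with no overlap. Of the 22 mitochondrial RNAs tested 13 were higher (median 1.37), and 13 were lower with somatic factors (median -1.17). COX3 had 5392, 4880.1 and 4947 CPM in males and 1619, 1777 and 1396 in females (log2 fold change 1.67, SE 0.13, adjusted p = 2.45e-05, and -0.88 with the somatic factors).

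Heat shock proteins fell into groups by member, with 14 of 26 higher and 8 lower in males, or 7 higher and 11 lower with somatic factors, against 46.6% higher and 31.6% lower of all tested genes with TMM factors. The small chaperones Hsp26, with 44.3, 60.9 and 55.6 CPM in males and 956, 1126 and 902 in females (log2 fold change -4.21, SE 0.17, adjusted p = 3.10e-06), and Hsp27, with 36.7, 51.8 and 47.2 CPM in males and 757, 844 and 731 in females (log2 fold change -4.10, SE 0.17, adjusted p = 3.03e-06), were lower. Hsp83, the Hsp90 of the fly and named after its values were seen, had 680.3, 827 and 752 CPM in males and 3716, 4386 and 3359 in females (log2 fold change -2.34, SE 0.15, adjusted p = 9.88e-06). The chaperonin paralog Hsp60D was at 68.7, 81.7 and 66 CPM in males and no counts in females (at least 4244-fold higher, adjusted p = 5.53e-06). All 4 genes are among the 84.2% of tested genes for which the sexes did not overlap.

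On the X chromosome a smaller share of genes was higher in males than on the autosomal arms, given here as a description. Of 2104 tested X-linked genes 38.9% were higher and 38% lower (median 0.14), against 48% higher and 30.6% lower of 11074 on arms 2L, 2R, 3L and 3R (median 1.29). With somatic factors 17% of X-linked and 24.2% of autosomal genes were higher, and 59.4% and 49.97% were lower. Of the counts of nuclear genes, the X took 12.99%, 13.2% and 13.6% in males and 17.8%, 17.4% and 18.0% in females (two-sided exact permutation p = 0.10, the smallest that 3 against 3 libraries allow). Chromosome 4 took 1.22% ± 0.0128 in males and 1.69% ± 0.0196 in females (SD, n = 3). Arm 2L took 20.8% ± 0.254 in males and 17.9% ± 0.224 in females, and of X, 4 and the autosomal arms it had the highest part of genes higher in males, 51.7%. The sexes did not overlap on any of these. Genes without a count in females made up 7.79% of tested X-linked and 14.1% of tested autosomal genes. Of 22 Y-linked genes tested 21 were called higher in males. This outcome was set in advance, since 21 of the 22 had no count in females and passed the filter through male libraries alone.

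**Figure D4:**
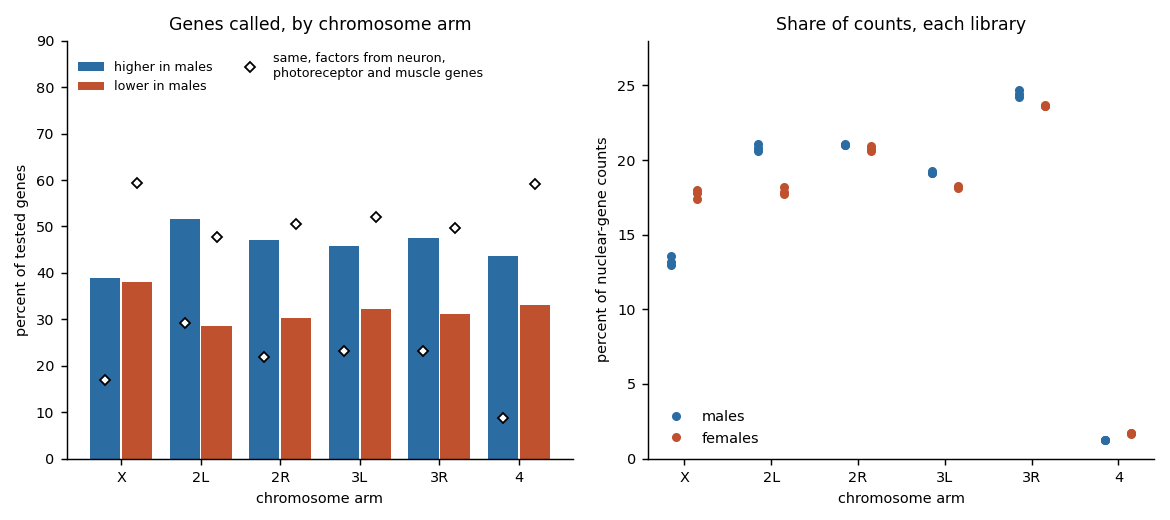
Left, percent of tested genes of each chromosome arm called higher or lower in males with TMM factors (bars) and with somatic factors (diamonds). Right, percent of the counts of nuclear genes on each arm in the 3 male and 3 female libraries. The X has 38.9% higher and 38% lower genes and the male points of X and 4 lie below the female points, while those of 2L lie above.

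Genes of dosage compensation and sex determination were split. lncRNA:roX1, an RNA of the MSL complex, had 728, 764 and 698 CPM in males and 0.456, 4.2 and 5.94 in females (log2 fold change 7.70, SE 0.94, adjusted p = 0.00038), and lncRNA:roX2 had 34.1, 20.4 and 13 CPM in males and no counts in females (at least 1302-fold higher, adjusted p = 9.15e-05). msl-2, the subunit whose translation Sxl blocks in females, had 23.5, 25.6 and 21.1 CPM in males and 3.07, 5.43 and 5.21 in females (log2 fold change 2.35, SE 0.31, adjusted p = 0.000301, and -0.20 with the somatic factors, not called). No other protein of the complex was called higher in males. msl-1 had 16.2, 18.2 and 22.1 CPM in males and 215, 199 and 214 in females (log2 fold change -3.48, SE 0.15, adjusted p = 3.11e-06), and msl-3 (log2 fold change -1.80, SE 0.18, adjusted p = 7.82e-05) and the acetyltransferase mof (log2 fold change -1.79, SE 0.20, adjusted p = 0.000127) were lower too. The helicase mle, which the test did not call (adjusted p = 0.325), had 54.3, 51.9 and 58.3 CPM in males and 48.6, 47.6 and 52.4 in females. The zinc finger gene Clamp had 78.6, 69.97 and 77.7 CPM in males and 181, 173 and 184 in females (log2 fold change -1.25, SE 0.10, adjusted p = 2.26e-05). Of the sex determination genes dsx had 104, 127 and 137 CPM in males and 15.3, 14.3 and 13.1 in females (log2 fold change 3.11, SE 0.16, adjusted p = 4.90e-06, and 0.56 with the somatic factors, not called), and fru had 50.7, 51.5 and 62.6 CPM in males and 12, 13.3 and 11.2 in females (log2 fold change 2.17, SE 0.18, adjusted p = 2.99e-05, and -0.37 with the somatic factors, not called). Sxl itself had 139, 137 and 134 CPM in males and 236, 211 and 234 in females (log2 fold change -0.73, SE 0.09, adjusted p = 0.000225), and tra was not called (adjusted p = 0.973). her (log2 fold change -1.80, SE 0.22, adjusted p = 0.000188) and ix (log2 fold change -2.60, SE 0.32, adjusted p = 0.000203) were lower. Counts per gene join the male and female splice forms of Sxl, tra, dsx and fru.

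Long noncoding RNAs were more often higher in males than protein-coding genes were. Of 915 tested 670 (73.2%) were higher and 28 lower, with 598 higher under somatic factors. Of 12079 protein-coding genes 44.9% were higher. No count in any female library was found for 557 of these RNAs (60.9%) and for 1130 protein-coding genes (9.36%). Such genes passed the filter through male libraries alone and could only come out higher. The larger share of RNAs higher in males is thus not independent of the filter. The RNAs named here were chosen after their values were seen, from those with many counts in one sex. lncRNA:CR32658 had 583, 508 and 556 CPM in males and 0, 0.795 and 0 in females (log2 fold change 11.11, SE 1.20, adjusted p = 0.00021), and lncRNA:CR32652 had 461, 412 and 468 CPM in males and 0, 0.227 and 0 in females (log2 fold change 12.62, SE 0.78, adjusted p = 1.89e-05). Each had a single female library with counts, female replicate 2. lncRNA:CR46472 had 0, 0.289 and 0 CPM in males and 223, 246 and 197 in females (log2 fold change -11.20, SE 0.72, adjusted p = 2.17e-05). The annotation places copies of transposable elements over much of its exons, 3929 of 6931 bases being shared with one of the mdg1 family, and reads of these copies cannot be told apart from its own. lncRNA:Hsromega, the stress-responsive nuclear RNA, had 328, 319 and 323 CPM in males and 70.4, 95.8 and 82.7 in females (log2 fold change 1.96, SE 0.13, adjusted p = 1.20e-05, and -0.58 with the somatic factors).

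**Figure D5:**
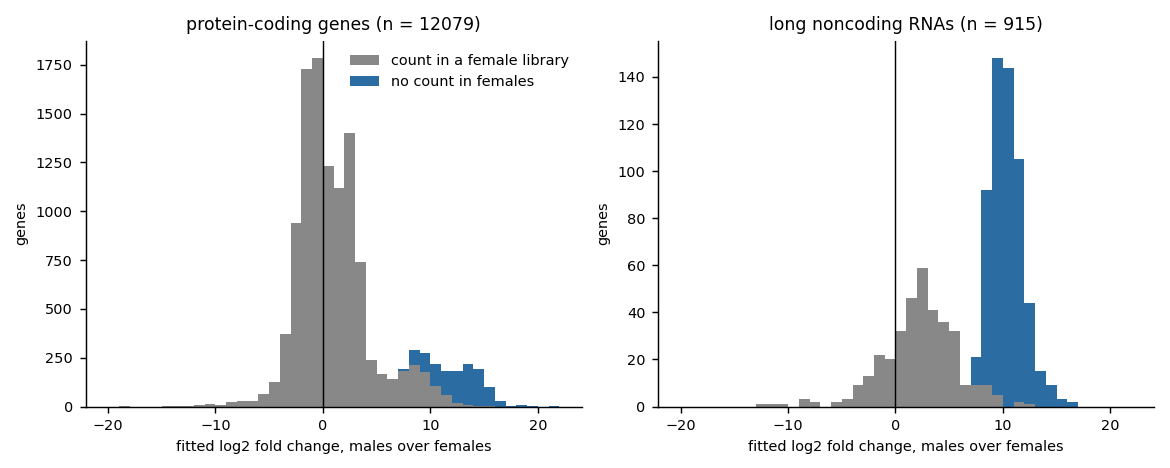
Number of tested genes by fitted log2 fold change (males over females), for protein-coding genes and for long noncoding RNAs, with genes lacking any count in females in blue. Protein-coding genes form a main group around 0 and a second group on the far right, and 557 of 915 long noncoding RNAs lie in the group without female counts.

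Most genes of neurons, eye and muscle were higher in males with TMM factors (46.6% of all tested genes were) and few with somatic factors (23.1% of all). Of 58 synaptic genes 50 were higher in males (median 2.87), but with somatic factors 9 were higher and 7 lower (median 0.32). Of 32 neuropeptide genes 29 were higher (median 2.81), but with somatic factors 3 were higher and 1 lower (median 0.29). For phototransduction the numbers were 27 of 29 higher (median 2.86), and 3 higher and 5 lower with somatic factors (median 0.36). For the sarcomere they were 30 of 36 higher (median 1.80), and 2 higher and 18 lower with somatic factors (median -0.74). Of these 4 lists the sarcomere was thus the one whose median changed sign. The 45 genes that set the somatic factors are 21 synaptic, 13 phototransduction and 11 sarcomere genes of these lists, so that the values under these factors are not independent of them. Eye markers summed to 6372 to 7967 CPM in males and 722 to 1687 CPM in females, and muscle markers to 2553 to 3004 CPM in males and 978 to 1142 CPM in females. Single genes of these lists differed in size and direction. The ultraviolet opsin Rh3 had 195, 187 and 149 CPM in males and 27.4, 58.5 and 20.4 in females (log2 fold change 2.32, SE 0.41, adjusted p = 0.00204, and -0.16 with the somatic factors, not called), and the blue opsin Rh5 had 19.9, 17.1 and 12.2 CPM in males and 0.882, 2.65 and 0.319 in females (log2 fold change 3.68, SE 0.77, adjusted p = 0.00329, and 1.26 with the somatic factors, not called). Female replicate 2 was the highest female library for both. The nicotinic receptor subunit nAChRalpha4 had 34.9, 35.1 and 28 CPM in males and 74.9, 74.3 and 67.7 in females (log2 fold change -1.15, SE 0.15, adjusted p = 0.000289), against nAChRalpha2 with 20.1, 19.4 and 23 CPM in males and 2.03, 1.42 and 0.567 in females (log2 fold change 3.95, SE 0.50, adjusted p = 0.000259). The exons of nAChRalpha4, of 6050 bases, overlap several copies of transposable elements, by up to 351 bases each, and reads of these cannot be told apart. Among sarcomere genes the arginine kinase paralog Argk2 had 65.5, 90.8 and 73.9 CPM in males and 7.54, 8.33 and 4.96 in females (log2 fold change 3.47, SE 0.26, adjusted p = 1.92e-05) and the tropomyosin Tm1 349.6, 346 and 363 CPM in males and 585, 702 and 567 in females (log2 fold change -0.81, SE 0.12, adjusted p = 0.000487). Among receptors of taste and smell 29 of 59 tested were higher and 15 under somatic factors, both shares near those of all genes. Among those higher were Or59c (at least 1254-fold higher, adjusted p = 3.53e-05) and Gr32a, a receptor for bitter tastes and a male pheromone (at least 223-fold higher, adjusted p = 0.000555), both without a count in females.

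Among enzymes that modify toxins most cytochrome P450 genes were higher in males with TMM factors, and in 2 other families the share that was higher was near the 46.6% of all tested genes. Of 83 cytochrome P450 genes 53 were higher and 8 lower (median 2.29), and with somatic factors 11 were higher and 17 lower (median -0.22). Cyp28c1 had 76.7, 68 and 108 CPM in males and 0.0882, 0.322 and 0 in females (log2 fold change 9.29, SE 0.82, adjusted p = 8.69e-05). Cyp6a19 had 0.702, 1.76 and 4.85 CPM in males and 606, 742 and 546 in females (log2 fold change -8.00, SE 0.76, adjusted p = 0.000116), with 397 bases of its exons shared with the opposite strand gene Cyp6a9. Both genes are among the 84.2% of tested genes without overlap, a condition for naming them. Of 34 glutathione S-transferases 17 were higher and 11 lower, and with somatic factors 0 were higher (edgeR, and also 0 at an unadjusted p under 0.05) and 17 lower. GstT2 had 5.98, 11.6 and 12 CPM in males and 43.4, 56.9 and 53.1 in females (log2 fold change -2.37, SE 0.30, adjusted p = 0.000269). Of 29 UDP-glycosyltransferases 15 were higher and 4 lower, and 5 and 9 with somatic factors.

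Gut serine proteases, the trypsins and Jonah proteases that digest food protein, were called higher in 13 of 31 (median 0.93), near the 46.6% and the median of 1.06 of all tested genes, and the number was 7 without male replicate 1 and 7 without female replicate 3. With somatic factors 1 was higher and 16 were lower. Gut markers summed to 1679 to 2780 CPM in males and 464 to 1599 CPM in females, whose highest library was female replicate 2. The trypsin alphaTry had 692, 710.2 and 462 CPM in males and 93.1, 329.7 and 116 in females (log2 fold change 1.79, SE 0.51, adjusted p = 0.017, and -0.67 with the somatic factors, not called), with female replicate 2 well above the other females. Of 33 genes of the vacuolar ATPase, the proton pump of gut and renal tubules, 17 were higher and 10 lower, near the 46.6% and 31.6% of all tested genes. With somatic factors 12 were higher and 17 lower, those higher including Vha100-3 with 68, 90.6 and 87.4 CPM in males and no counts in females (at least 4859-fold higher, adjusted p = 5.96e-06). In a mixed list of aquaporins, irk channels and tubule genes, the aquaglyceroporin Eglp1 had 116, 107 and 89.6 CPM in males and 0, 0.284 and 0 in females (log2 fold change 10.19, SE 0.95, adjusted p = 0.00011). The water channel Prip had 35.3, 23.2 and 27.7 CPM in males and 336, 434 and 309 in females (log2 fold change -3.64, SE 0.21, adjusted p = 7.23e-06). Both sexes have tubules, and the values of Eglp1 do not describe them. In which tissue either RNA was made was not tested. Of 55 structural cuticle proteins 28 were higher (median 3.39) and 14 with somatic factors, shares near the 46.6% and 23.1% of all tested genes. These were mostly at low counts, as in Cpr97Eb with 8.48, 5.73 and 3.72 CPM in males and no counts in females (at least 347-fold higher, adjusted p = 0.000314).

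Pheromone synthesis separated by enzyme. Fad2 (desatF), the desaturase that places the second double bond of the female dienes, had 0, 0 and 0.361 CPM in males and 52, 94.5 and 46.2 in females (log2 fold change -8.93, SE 1.05, adjusted p = 0.00031). eloF, the elongase of the same female hydrocarbons, had 0, 0.842 and 1.22 CPM in males and 25.9, 41.3 and 20.6 in females (log2 fold change -5.40, SE 1.13, adjusted p = 0.00458). The elongases sit, with 27.3, 14.9 and 27.8 CPM in males and no counts in females (at least 1393-fold higher, adjusted p = 4.54e-05), and Elo68alpha, with 12, 3.13 and 9.02 CPM in males and 0.147, 0 and 0 in females (log2 fold change 7.21, SE 1.45, adjusted p = 0.00287), were found in males, where Elo68alpha makes a precursor of the male pheromone vaccenyl acetate. Non-overlap of the sexes, found for 84.2% of all tested genes, was a condition for naming these 4 genes. In the whole list of 15 enzymes 10 were higher and 2 lower, against 46.6% and 31.6% of all tested genes. With somatic factors 3 were higher and 8 lower, near the 23.1% and 51.5% of all tested genes.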

How the data were processed

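The authors deposited raw counts per gene for each library, and the counter, the annotation and the use of strand are not given in the sources used here. Their size-factor-divided values had lost the decimal point, and those, short tables of FPKM and columns of fold changes and p-values were not used. Sexes were compared with edgeR 4.0.16 (R 4.3.3): TMM factors, filterByExpr defaults (in 3 libraries the CPM of 10 counts at median depth, and 15 counts in all), quasi-likelihood test, Benjamini-Hochberg adjustment. p-values measure the spread between these samples. Log2 fold changes are males over females. Where a sex had no count, the fold was bounded with a floor of 3 counts over its 3 libraries. Such a gene passed the filter through the other sex alone and could only be called in that direction. This held for 1752 tested genes without a count in females and 66 without one in males. The procedure was tested on simulated data.

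Symbols and chromosome arms came from RefSeq Release 6 by NCBI gene number (15120 of 15130 matched), and exons from the Ensembl annotation of BDGP6.54 by symbol (15090). Of the 59 gene lists and of the whole table, the genes named have the largest changes in each direction (2 per list, 10 overall) without overlap and with 100 counts or more in each library of the sex that was higher. Tissue markers, members of pairs and sex determination genes were named besides, and others as said in place. The members and lists were chosen with earlier results of these data known. Of 458 named genes 115 share exon bases with another gene, and without strand their reads cannot be told apart. Alternatives were other factors, filters, DESeq2 1.42.0, limma-voom (limma 3.58.1), a replicate block, all 12 libraries, and each library left out. No sequence is printed, since no sequence table was used here.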

Additional observations from a re-analysis of the deposited data

How the results depend on the processing

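Counts of genes higher and lower in males stayed within 1.5 times the reported 6212 and 4219 under RLE factors (6601 and 3866), upper quartile factors (6603 and 3870), plain totals (6024 and 4531), DESeq2 (6904 and 3985), limma-voom (6516 and 4284), a mean of 10 counts as the filter, no filter at all, all 12 libraries in one fit and a further condition of an absolute log2 fold change above 1 (5776 and 3308), and ranged from 5984 to 6369 higher and 3993 to 4148 lower with each library left out. The somatic factors gave 3074 higher and 6861 lower, since they scale males down relative to females, and with them the median of 21 of 59 lists changed sign. With these factors the log2 fold change of genes named here that changed sign was Act88F -0.22, COX3 -0.88, COX4 -2.36, Hex-A -2.20, Mhc -0.89, Rh3 -0.16, RpS5a -1.79, TpnC4 -2.02, alphaTry -0.67, cnn -2.05, exu -2.03, fru -0.37, lncRNA:Hsromega -0.58, mle -2.42, msl-2 -0.20, papi -1.95, tra -2.51 and tsl -1.51. Elsewhere the sign turned only in genes that were not called, TpnC4 -0.060 and tra -0.010 with the replicate block, TpnC4 -1.03 with limma-voom, alphaTub84B 0.026 with RLE factors, alphaTub84B 0.024 with upper quartile factors, alphaTub84B 0.026 with DESeq2 and mle -0.022 and tra -0.16 with total count without factors, and with single libraries left out in Send2 (-0.74 to 0.56), TpnC4 (-0.97 to 1.28) and tra (-0.14 to 0.25). Low counts limit the values of flight muscle, spermathecal and cuticle genes.

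The labels give both sexes replicate numbers 1 to 3 and do not say whether these pair the samples. Correlations of the deviations of same-numbered male and female libraries from their group means were 0.00265, 0.0449 and 0.0351. Between libraries of different number they ran from -0.0549 to 0.0227. Values this small do not decide whether equal numbers mark a shared experiment. A fit with the replicate number as a block called 5368 higher and 3933 lower. Not every library correlated best with its own number.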
